A study of Mus musculus with 6 samples.

Results

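The genes described here are 32 skeletal muscle genes, measured in 6 subcutaneous mouse tumours among 21154 genes of the array. They were taken from the expression table by symbol, from a list of contractile, calcium handling and metabolic muscle genes, and the rule used no measured value. By role they are 12 fast fibre genes, 6 slow fibre genes, 2 developmental myosins, 5 sarcomere genes common to all fibres, 4 genes of energy metabolism, 2 transcription factors of muscle formation and the calcium release channel. KLN205, the injected line, is a mouse squamous cell carcinoma line. Cells (1000000 per mouse in 50 µL of medium with 100 µL of Matrigel) had been placed under the skin of the left flank, and tumour tissue was profiled. The control group holds 3 tumours, numbered 2, 3 and 4, and the anti-PD-1 group holds 3, numbered 1, 2 and 3. Anti-PD-1 is an antibody that blocks an inhibitory receptor of T cells. Per the labels' protocols it was given into the peritoneum at 250 µg every 3 days, as was an IgG2a isotype control antibody, whereas the treatment label of the control tumours says only that they were without anti-PD-1. No strain, sex or age of the mice is stated in the labels. The design text speaks of surviving KLN205 cells, while every sample label names tumour tissue. The labels do not say whether host tissue was trimmed from the tumours. In such RNA, fewer muscle cells and less muscle RNA per cell cannot be told apart.

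A muscle fibre contracts when calcium leaves the sarcoplasmic reticulum through the ryanodine receptor and binds troponin on the thin filament, which lets myosin heads pull on actin. Fast and slow fibres do this with different paralogs of myosin heavy chain, myosin light chain, troponin and calcium pump, so that the paralogs mark the kind of fibre. Embryonic and perinatal myosins, encoded by Myh3 and Myh8, are typical of developing and regenerating fibres, and the factors MyoD and myogenin drive myoblasts to form fibres. Mouse skin carries a thin sheet of skeletal muscle beneath its fat layer. The source of the muscle RNA in these tumours was not tested.

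Signals are log2 values per gene, already normalized by the authors, and the array medians lay between 7.04 and 7.13. The array of control replicate 3 was unlike the rest. It gave the highest signal of the 6 arrays for 26.0% of all genes, and all 9 measured markers of squamous tumour cells were lowest in it. For that reason some group differences, though not all, are also given without it. The authors' calls list 30 of the 32 genes as expressed in at least 1 group, and Myl2 and Myod1 in neither. The skeletal alpha-actin Acta1 was no lower than 10.60 on any array. The calls are per group and not per array. On the array of anti-PD-1 replicate 3, Acta1 was at 10.60, Mylpf at 8.99, Myh1 at 5.49 and Ryr1 at 3.44. Whether probes of Acta1 also read RNA of other actins was not tested. Of 8 cardiac markers, 5 were called expressed in at least 1 group, among them Nppb and Tnni3, and 3 in neither, among them the cardiac alpha-myosin Myh6. The labels do not say whether the tumours of a group came from separate mice, so p-values measure the spread between these samples.

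RefSeq promoters (GRCm38.p6, 250 bases before to 50 after the start) were found for 26 of the 32 genes, 32 promoters in all. They are described because most of the members had their highest and lowest arrays in common, and the 5 shown belong to the genes with the contrasting array patterns described below. The 4 motifs bound by muscle factors or the general machinery that were searched, on both strands, were the E-box CANNTG, the TATA box TATAAA, the MEF2 consensus and the CArG box of serum response factor. Of the 32 promoters, 28 (87.5%) held an E-box, against 72.3% of all 32851 promoters. TATAAA was in 9 (28.1%, against 13.6%), a MEF2 match in 5 (15.6%, against 3.19%) and a CArG box in 3 (9.38%, against 1.63%). The MEF2 matches were in promoters of Myh1, Myh4, Myh8, Pvalb and Ttn, and the CArG boxes in those of Acta1, Myh4 and Myl3. A match is a run of letters and not a shown binding site. The 250 bases before the start follow for the skeletal alpha-actin gene Acta1 at chr8:123894776-123895025 (minus strand), for the fast myosin Myh4 at chr11:67237562-67237811 (plus strand), for its perinatal neighbour Myh8 at chr11:67276874-67277123 (plus strand), for the embryonic myosin Myh3 at chr11:67078050-67078299 (plus strand) and for the myogenin gene Myog at chr1:134289754-134290003 (plus strand). Capitals mark MEF2, CArG and TATAAA matches on either strand, and a TATAAA on the other strand lies inside the MEF2 match of Myh4 and of Myh8.
Acta1: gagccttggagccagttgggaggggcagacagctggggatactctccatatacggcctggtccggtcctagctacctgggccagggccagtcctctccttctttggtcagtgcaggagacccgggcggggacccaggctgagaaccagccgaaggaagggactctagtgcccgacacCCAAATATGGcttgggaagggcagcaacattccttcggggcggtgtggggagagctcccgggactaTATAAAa
Myh4: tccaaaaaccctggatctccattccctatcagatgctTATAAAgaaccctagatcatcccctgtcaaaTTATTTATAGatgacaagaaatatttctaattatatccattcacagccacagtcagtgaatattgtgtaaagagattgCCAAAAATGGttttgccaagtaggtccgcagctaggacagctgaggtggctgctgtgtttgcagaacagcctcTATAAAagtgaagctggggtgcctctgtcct
Myh8: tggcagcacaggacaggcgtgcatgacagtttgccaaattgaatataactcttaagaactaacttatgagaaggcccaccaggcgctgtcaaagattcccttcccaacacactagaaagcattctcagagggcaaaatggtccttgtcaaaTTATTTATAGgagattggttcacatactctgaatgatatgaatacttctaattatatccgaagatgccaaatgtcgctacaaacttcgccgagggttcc
Myh3: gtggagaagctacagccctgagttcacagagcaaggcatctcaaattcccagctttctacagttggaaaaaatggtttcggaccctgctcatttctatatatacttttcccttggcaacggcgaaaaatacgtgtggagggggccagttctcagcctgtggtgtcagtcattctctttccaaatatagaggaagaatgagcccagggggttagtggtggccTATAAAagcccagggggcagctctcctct
Myog: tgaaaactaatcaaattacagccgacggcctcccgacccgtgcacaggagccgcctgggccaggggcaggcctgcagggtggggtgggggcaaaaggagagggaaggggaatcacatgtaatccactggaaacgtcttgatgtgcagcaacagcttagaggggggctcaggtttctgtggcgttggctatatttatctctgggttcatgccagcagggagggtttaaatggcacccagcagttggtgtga
Myh4 and Myh8 carry the same 10 letters at their MEF2 match. Neither an exact MEF2 match nor an exact CArG match was found in the windows of Myh3 and Myog. The same held for 6 of the 9 fast genes with a promoter (Myh2, Mylpf, Myl1, Tnnc2, Atp2a1 and Casq1), so these exact matches do not divide the genes by array pattern. A missing match does not show that a site is absent, since near variants, such as the letters ctatatttat in the Myog window, are not counted.

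The muscle genes varied far more between tumours than the bulk of the array, in both groups. The median range of a member over the 6 arrays was 4.87 log2 units, against 0.99 over all genes. Within the anti-PD-1 group the median SD was 1.87 (0.27 over all genes), and within control it was 1.35 (0.36 over all genes). An SD over 1 log2 unit was seen for 24 of 32 members within anti-PD-1, where 1.8% of all genes had one, and for 21 within control, where 10.7% had one. For 25 members the SD was larger within anti-PD-1 than within control, which held for 35.3% of all genes. Most of the variation lay in a pair of arrays. Anti-PD-1 replicate 3 was the lowest of the 6 arrays for 25 members (17.0% of all genes), and for 19 members it lay at least 1 log2 unit below every other array, which held for 0.846% of all genes. Control replicate 3 was the highest array for 20 members, a share to be read against the 26.0% of all genes. Anti-PD-1 replicate 1 was the highest for 9 members (13.3% of all genes), and these 9 are Myh1, Myh2, Tnnt1, Tnni1, Tnnc1, Myh3, Actn2, Mb and Myog.

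**Figure D1:**
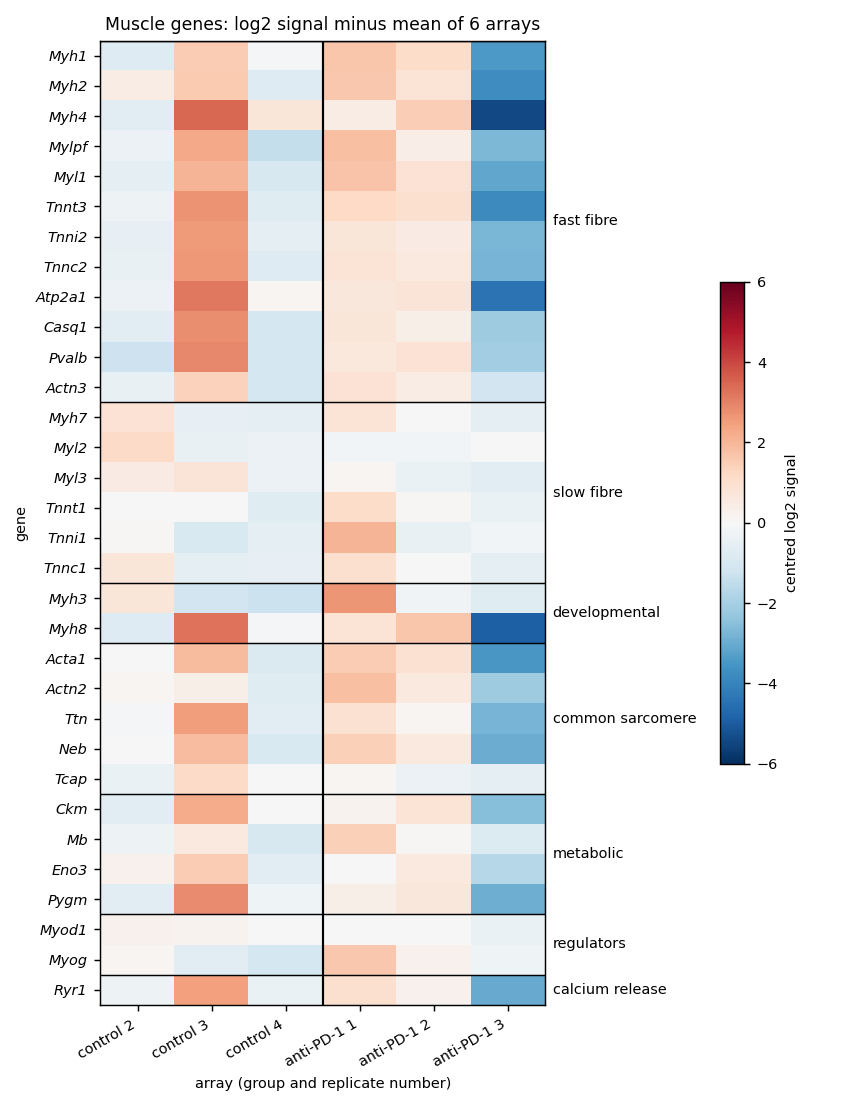
Log2 signal of each of the 32 muscle genes after subtraction of its own mean over the 6 arrays, with genes in rows by role and arrays in columns, control to the left of the vertical line. Anti-PD-1 replicate 3 is the lowest array for 25 genes and control replicate 3 the highest for 20, while the slow genes vary less, with a median range of 1.57. Some of the slow genes are dim, which limits how far their signals can fall.

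Among the 12 fast fibre genes, all 12 had their lowest signal in anti-PD-1 replicate 3 and 10 had their highest in control replicate 3. Their median range over the arrays was 5.22 log2 units. Myh4 encodes the myosin heavy chain of the fastest adult fibres (mm10, chr11:67237725-67260447). It varied most among the members, since the signal was 13.60, 17.65 and 14.92 in control replicates 2, 3 and 4 and 14.64, 15.69 and 8.80 in anti-PD-1 replicates 1, 2 and 3. The top array thus lay 461-fold above anti-PD-1 replicate 3, and the groups overlapped, because anti-PD-1 replicates 1 and 2 fell within the control range. The group means were 15.39 ± 2.07 (SD, n = 3) in control and 13.04 ± 3.71 in anti-PD-1, and their difference of -2.35 ± 1.89 (SE) gave an adjusted p of 0.649 in limma. Leaving out 1 array moved this difference to between -3.67 and -0.23, the latter with anti-PD-1 replicate 3 left out, and it was -1.22 without control replicate 3.

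Myh1 and Myh2 encode the myosins of the other fast fibre types, IIX and IIA. For Myh1 (chr11:67200052-67224575), the signal was 8.15, 10.42 and 8.83 in control replicates 2, 3 and 4 and 10.57, 10.03 and 5.49 in anti-PD-1 replicates 1, 2 and 3. For Myh2 (chr11:67171027-67197517), the signal was 10.47, 11.57 and 9.26 in control replicates 2, 3 and 4 and 11.64, 10.83 and 6.31 in anti-PD-1 replicates 1, 2 and 3. Unlike Myh4, both were slightly higher in anti-PD-1 replicate 1 than in control replicate 3, by 0.15 and 0.07 log2 units. The 5 sarcomeric myosin genes Myh3, Myh2, Myh1, Myh4 and Myh8 lie side by side on chromosome 11 and are near-identical over long stretches, so that the signal of a single member is uncertain where probes could match a neighbour.

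Atp2a1 encodes SERCA1, the pump that returns calcium to the sarcoplasmic reticulum of fast fibres (chr7:126445858-126463108). It had the same highest and lowest arrays as Myh4, since the signal was 11.64, 15.16 and 12.13 in control replicates 2, 3 and 4 and 12.70, 12.78 and 7.59 in anti-PD-1 replicates 1, 2 and 3. The top array was 190-fold above anti-PD-1 replicate 3, and the difference of means was -1.95 ± 1.57 (SE), with an adjusted p of 0.649. It was -0.24 when anti-PD-1 replicate 3 was left out and -0.86 when control replicate 3 was. The fast troponin subunits moved alike. Tnnt3 encodes the subunit that binds tropomyosin, and the signal was 11.60, 14.59 and 11.17 in control replicates 2, 3 and 4 and 13.09, 12.89 and 8.11 in anti-PD-1 replicates 1, 2 and 3. Tnni2 encodes the inhibitory subunit, and the signal was 9.38, 12.41 and 9.27 in control replicates 2, 3 and 4 and 10.58, 10.36 and 7.11 in anti-PD-1 replicates 1, 2 and 3. Tnnc2 encodes the calcium-binding subunit, and the signal was 7.96, 10.98 and 7.61 in control replicates 2, 3 and 4 and 9.22, 9.00 and 5.62 in anti-PD-1 replicates 1, 2 and 3. Each was lowest in anti-PD-1 replicate 3 and highest in control replicate 3, and in each the remaining 2 anti-PD-1 tumours lay between control replicates 2 and 4 on one side and control replicate 3 on the other.

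The light chains Mylpf (regulatory) and Myl1 (essential) of fast myosin had the same order of arrays at the ends. For Mylpf, the signal was 11.35, 13.99 and 10.28 in control replicates 2, 3 and 4 and 13.48, 12.10 and 8.99 in anti-PD-1 replicates 1, 2 and 3. For Myl1, the signal was 11.43, 14.04 and 11.05 in control replicates 2, 3 and 4 and 13.71, 12.86 and 8.89 in anti-PD-1 replicates 1, 2 and 3. Anti-PD-1 replicate 1 came within 0.51 and 0.33 log2 units of control replicate 3 for these light chains, nearer than for the troponins. Calcium buffers of fast fibres behaved like the troponins. Casq1 encodes the calsequestrin that stores calcium in the reticulum, and the signal was 8.63, 12.09 and 8.28 in control replicates 2, 3 and 4 and 10.03, 9.69 and 7.20 in anti-PD-1 replicates 1, 2 and 3. Pvalb encodes parvalbumin, a cytosolic calcium buffer that speeds relaxation, and the signal was 7.74, 11.86 and 7.90 in control replicates 2, 3 and 4 and 9.58, 9.84 and 6.90 in anti-PD-1 replicates 1, 2 and 3. Actn3, the fast-fibre alpha-actinin of the Z disc, varied least in this group, with a range of 2.52, and its values were 10.36, 12.19 and 9.75 in control and 11.70, 11.28 and 9.67 in anti-PD-1 tumours.

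**Figure D2:**
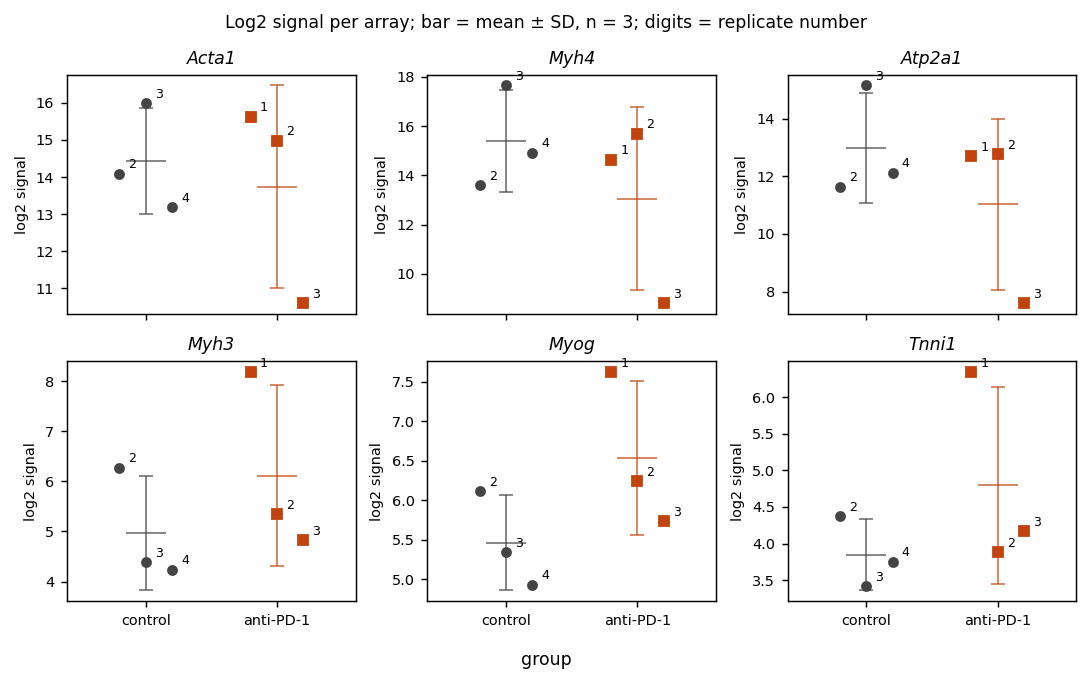
Log2 signal of Acta1, Myh4, Atp2a1, Myh3, Myog and Tnni1 in each array, with circles for control and squares for anti-PD-1, digits for the replicate number and bars for mean ± SD (n = 3). Anti-PD-1 replicate 3 lies lowest for Acta1, Myh4 and Atp2a1, while anti-PD-1 replicate 1 lies highest for Myh3, Myog and Tnni1.

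The 6 slow fibre genes did not share that pattern. Their median range over the arrays was 1.57 log2 units, and 2 of the 6 had their lowest signal in anti-PD-1 replicate 3. Myh7 encodes the slow myosin heavy chain. For this gene the signal was 5.54, 4.18 and 4.10 in control replicates 2, 3 and 4 and 5.49, 4.70 and 4.14 in anti-PD-1 replicates 1, 2 and 3, and anti-PD-1 replicate 3 lay between control replicates 3 and 4. Tnnt1, the slow troponin T, was highest in anti-PD-1 replicate 1, since the signal was 8.08, 8.08 and 7.38 in control replicates 2, 3 and 4 and 9.19, 8.14 and 7.68 in anti-PD-1 replicates 1, 2 and 3. Tnnc1, the troponin C of slow and cardiac muscle, gave 8.46, 7.16 and 7.25 in control and 8.69, 7.69 and 7.15 in anti-PD-1 tumours, so that control replicate 2 and anti-PD-1 replicate 1 were the high arrays.

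Tnni1, the slow troponin I, was called expressed in anti-PD-1 and not in control tumours. Its log2 signals were 4.37, 3.42 and 3.75 in control and 6.34, 3.88 and 4.17 in anti-PD-1 tumours, and anti-PD-1 replicate 1 stood alone. The anti-PD-1 mean was 1.93-fold above a control mean at which the gene was not called expressed, with an adjusted p of 0.604 in limma. That size rests on 1 array, since the log2 difference of means was 0.95 with anti-PD-1 replicate 1 and 0.18 without it. Myl3, the slow and ventricular essential light chain, was the one slow gene with its peak in control replicate 3. For Myl3 the signal was 7.31, 7.58 and 6.47 in control replicates 2, 3 and 4 and 6.94, 6.40 and 6.14 in anti-PD-1 replicates 1, 2 and 3, and the difference of means was -0.63 ± 0.36 (SE) with an unadjusted p of 0.127. Myl2, the slow and ventricular regulatory light chain, lay between 4.39 and 5.99 and was called expressed in neither group, so no difference is given.

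The developmental myosins parted from each other. Myh3, the embryonic myosin (chr11:67078300-67102291), had its highest signal in anti-PD-1 replicate 1, since the signal was 6.27, 4.38 and 4.24 in control replicates 2, 3 and 4 and 8.18, 5.34 and 4.83 in anti-PD-1 replicates 1, 2 and 3. Its difference of means was 1.15 ± 0.96 (SE), with an adjusted p of 0.660. It was 0.12 without anti-PD-1 replicate 1 and 0.86 without control replicate 3. Myh8, the perinatal myosin (chr11:67277124-67308634), instead followed Myh4, its neighbour in the genome. For Myh8 the signal was 12.58, 16.58 and 13.21 in control replicates 2, 3 and 4 and 14.17, 15.02 and 8.45 in anti-PD-1 replicates 1, 2 and 3, a 280-fold span from anti-PD-1 replicate 3 to the top array. Centred on their own means, Myh4 and Myh8 differed from each other by a range of 1.36 log2 units over the arrays, against ranges of 8.85 and 8.13 for each alone. Whether probes of Myh8 also read Myh4 RNA was not tested.

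Myogenin, the factor that drives myoblasts to fuse and mature, had the smallest p of the members. For Myog (chr1:134289989-134292548), the signal was 6.11, 5.34 and 4.93 in control replicates 2, 3 and 4 and 7.62, 6.24 and 5.73 in anti-PD-1 replicates 1, 2 and 3. Its difference of means was 1.07 ± 0.54 (SE), with an unadjusted p of 0.0881 and an adjusted p of 0.542, and the groups overlapped because control replicate 2 exceeded anti-PD-1 replicate 3. With that last array left out the difference was 1.47 and the unadjusted p 0.0376, with an adjusted p of 0.836, while without anti-PD-1 replicate 1 the difference was 0.53 and the adjusted p 0.789. Myod1, encoding MyoD, was between 2.93 and 3.58 on every array and was called expressed in neither group.

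The common sarcomere genes had the low array of the fast genes, since all 5 were lowest in anti-PD-1 replicate 3. Acta1, the skeletal alpha-actin of the thin filament (chr8:123891758-123894775), gave 14.09, 15.99 and 13.19 in control and 15.62, 14.98 and 10.60 in anti-PD-1 tumours. The lowest array was 41.9-fold below the top one. Its means of 14.42 ± 1.43 and 13.73 ± 2.73 (SD, n = 3) differed by -0.69 ± 1.38 (SE), with an adjusted p of 0.866. Without control replicate 3 the Acta1 difference was 0.09. Ttn encodes titin, the spring that spans from Z disc to M band, and the signal was 10.62, 13.25 and 10.12 in control replicates 2, 3 and 4 and 11.67, 10.84 and 7.94 in anti-PD-1 replicates 1, 2 and 3. Neb encodes nebulin, which runs along the thin filament, and the signal was 8.83, 10.70 and 7.90 in control replicates 2, 3 and 4 and 10.27, 9.40 and 5.85 in anti-PD-1 replicates 1, 2 and 3. Actn2, the alpha-actinin of all fibres, differed from its fast paralog Actn3 in its peak, which was anti-PD-1 replicate 1, since the signal was 10.02, 10.27 and 9.17 in control replicates 2, 3 and 4 and 11.72, 10.47 and 7.76 in anti-PD-1 replicates 1, 2 and 3. Tcap, the cap of titin at the Z disc, had a range of 1.66, with 5.41, 6.94 and 5.83 in control and 5.91, 5.47 and 5.28 in anti-PD-1 tumours.

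The calcium release channel gene Ryr1 ranged over 5.50 log2 units. Its signals were 6.17, 8.94 and 6.08 in control and 7.44, 6.75 and 3.44 in anti-PD-1 tumours, which puts anti-PD-1 replicate 3 at 2.64 below the next lowest array. Among the metabolic genes, Ckm encodes muscle creatine kinase, which buffers ATP (chr7:19411094-19421583). For Ckm the signal was 9.99, 12.92 and 10.67 in control replicates 2, 3 and 4 and 10.90, 11.50 and 8.13 in anti-PD-1 replicates 1, 2 and 3. Pygm, the muscle glycogen phosphorylase, ranged over 5.78, since the signal was 10.43, 13.95 and 10.85 in control replicates 2, 3 and 4 and 11.44, 11.77 and 8.17 in anti-PD-1 replicates 1, 2 and 3. Eno3 encodes the muscle form of the glycolytic enzyme enolase. Its signals were 8.41, 9.68 and 7.50 in control and 8.13, 8.73 and 6.44 in anti-PD-1 tumours. Mb encodes myoglobin, the oxygen store of oxidative fibres, and was the one metabolic gene whose lowest array was not anti-PD-1 replicate 3. For Mb the signal was 8.16, 9.03 and 7.48 in control replicates 2, 3 and 4 and 9.89, 8.52 and 7.65 in anti-PD-1 replicates 1, 2 and 3, so its peak was anti-PD-1 replicate 1.

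To compare kinds of fibre, each gene was centred on its mean over the 6 arrays and the median over the genes of a role was taken per array. The fast score was -0.47, 2.57 and -0.77 in control replicates 2, 3 and 4 and 0.85, 0.80 and -2.94 in anti-PD-1 replicates 1, 2 and 3. The slow score was 0.61, -0.48 and -0.53 in control and 0.88, -0.10 and -0.48 in anti-PD-1. Fast and slow scores therefore moved apart at both ends. In control replicate 3 the fast score was the highest of all arrays while the slow score was below 0. In anti-PD-1 replicate 3 the fast score was the lowest, while the slow score equalled that of control replicate 3 to 2 decimals. The slow score includes dim genes, whose signals can fall little. Myl2 was called expressed in neither group, Tnni1 not in control, and Myh7 lay between 4.10 and 5.54. The other slow genes, Myl3, Tnnt1 and Tnnc1, had ranges of 1.44, 1.81 and 1.54. The part of low signal in this contrast was not tested. Fast minus slow was 0.58 ± 2.19 (SD, n = 3) in control and -0.53 ± 1.73 in anti-PD-1, a difference of -1.11 that is smaller than either SD. Without control replicate 3 the difference was 0.13, and without anti-PD-1 replicate 3 it was -0.09. Differences within a pair of paralogs largely restated the range of the fast gene. Centred Tnnt3 minus Tnnt1 ranged over 6.08 log2 units, against 6.48 for Tnnt3 and 1.81 for Tnnt1 alone. The alpha-actinins, which both varied, moved more alike, since Actn3 minus Actn2 ranged over 1.94, against 2.52 for Actn3 and 3.96 for Actn2 alone.

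The developmental score, over Myh3 and Myh8, was -0.01, 1.04 and -0.71 in control and 1.74, 0.74 and -2.80 in anti-PD-1. Developmental minus fast was -0.34 ± 1.05 (SD, n = 3) in control and 0.33 ± 0.50 in anti-PD-1. The difference of 0.66 is smaller than the control SD and larger than the anti-PD-1 SD. The score was highest in anti-PD-1 replicate 1, at 0.89, and lowest in control replicate 3, at -1.53. Without control replicate 3 the difference of groups was 0.09. These scores are descriptions of 6 arrays and were given no test. The developmental score joins Myh3 and Myh8, which parted from each other, so it describes neither gene alone. Centred Myh4 minus Myh3 ranged over 9.30 log2 units, against 1.36 for Myh4 minus Myh8.

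**Figure D3:**
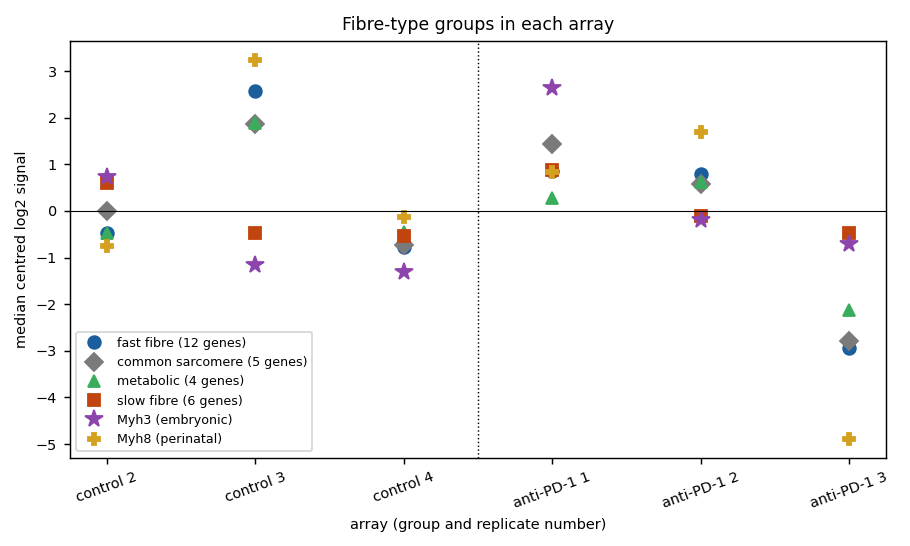
Median centred log2 signal of the fast, common sarcomere, metabolic and slow genes, and of Myh3 and Myh8 singly, in each array, control to the left of the dotted line. Fast genes run from 2.57 in control replicate 3 to -2.94 in anti-PD-1 replicate 3, while slow genes, some of them dim, stay between -0.53 and 0.88.

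The study's comparison, anti-PD-1 against control, gave no call among the muscle genes. In limma's fit over all genes 0 of 32 members passed an adjusted p of 0.05, where 1 gene, 0.00473% of all, passed (Stfa1, a stefin, named after its value was seen). At an unadjusted p under 0.05 the count was also 0 of 32, against 9.7% of all genes. The groups did not overlap for 1 member, the unexpressed Myod1, against 16.6% of all genes. By the mean of 3 arrays, 23 members were lower in anti-PD-1 tumours, where 48.3% of all genes were, and the median difference was -0.57 log2 units (0.02 over all genes). The score over all members differed by -0.58, which is under its pooled SD of 1.54 between arrays of a group. Leaving out control replicate 3 brought the median to 0.01, with 16 members higher and 16 lower. Leaving out anti-PD-1 replicate 3 turned it to 0.51, with 23 members higher. In that fit Actn2 and Myog had an unadjusted p under 0.05 (0.0497 and 0.0376), both with adjusted p of 0.836. So did 1051 of all 21154 genes at the unadjusted threshold.

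The direction also depended on the kind of average. The authors' deposited table gives group averages that a Tukey biweight, a robust mean that gives little weight to a distant value, matched to within 0.01 log2 units for 95.3% of the control and 95.1% of the anti-PD-1 averages. The plain mean matched 20.3% and 24.8%. By the averages in the authors' deposited table, higher signals in anti-PD-1 tumours were found for 27 of 32 members, against 51.4% of all genes, and the median difference was 0.70. Mean and deposited average differed in direction for 18 members (14.5% of all genes), 10 of them fast genes. Medians of the 3 arrays also put 27 members higher, with a median difference of 0.57. The fold changes of the authors' deposited table run as control over anti-PD-1, the opposite of the direction used here.

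Myl1 shows the size of that dependence. Its mean difference was -0.35 ± 1.36 (SE), with a limma p of 0.803. In the authors' deposited table the averages were 11.25 in control and 13.22 in anti-PD-1, a fold of 3.94 toward anti-PD-1, beside a p of 0.8041. For Acta1 the authors' deposited table gives 14.26 and 15.29, a fold of 2.04 toward anti-PD-1, against the mean difference of -0.69. Pvalb (3.67), Myh8 (3.17), Tnnt3 (3.01) and Myh1 (2.51) likewise have deposited folds toward anti-PD-1 in the authors' deposited table and mean differences below 0. Myh4 is the one fast gene that the authors' deposited table puts lower in anti-PD-1, with a fold of 1.02. Myog was higher in anti-PD-1 by both, with a deposited fold of 1.89 and an FDR of 0.5422 in the authors' deposited table.

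**Figure D4:**
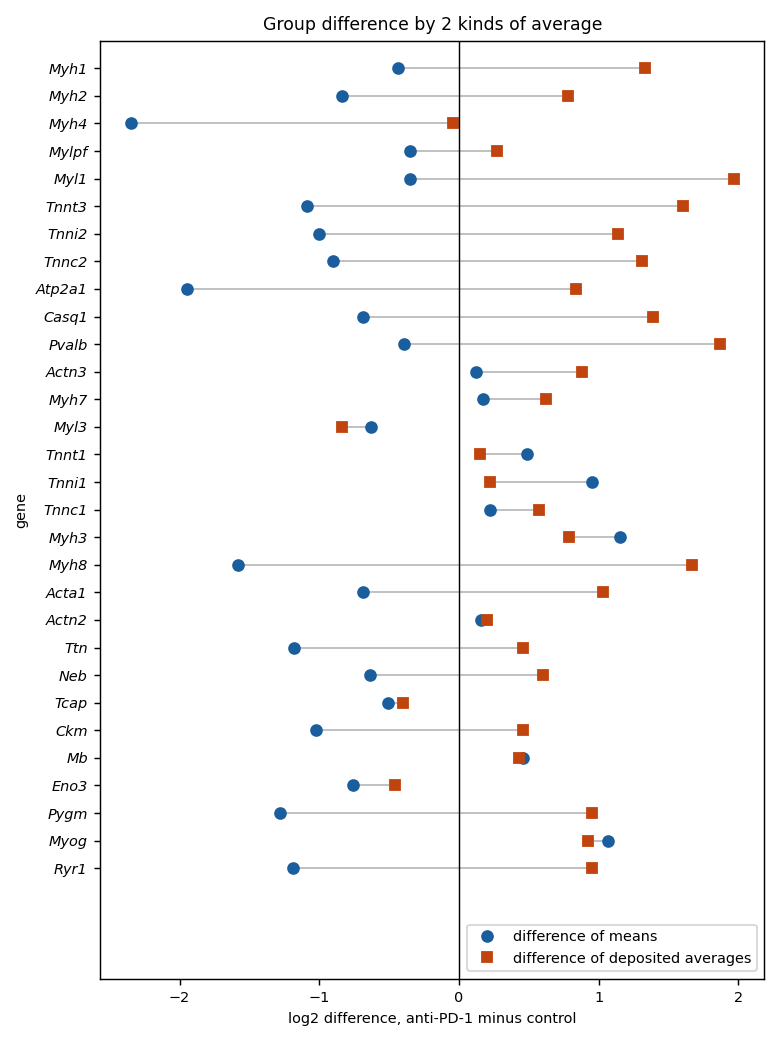
Log2 difference, anti-PD-1 minus control, of the 30 muscle genes expressed in at least 1 group, by the mean of 3 arrays (circles) and by the authors' deposited group averages (squares), joined per gene. Most circles lie left of 0 and most squares right of it, and the median over all 32 members is -0.57 by means and 0.70 by deposited averages.

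Of the 10 genes outside the members with the most similar profile over the 6 arrays, 5 belong to the muscle lists used here (Myot, Trdn, Myom2, Myom1 and Cacnb1). Likeness was the root mean square distance, in log2 units, to the members' median centred profile. The nearest was Myot, encoding myotilin of the Z disc, at 0.203, with 8.19, 10.09 and 7.61 in control and 8.91, 8.43 and 5.68 in anti-PD-1 tumours. Next came Trdn, encoding triadin, which anchors calsequestrin at the release channel, at 0.268. The M-band genes Myom2 and Myom1 followed at 0.283 and 0.307. The rest of the 10 were Adck3, Nrap, Sncaip, Apobec2, Ppp1r3a and, at a distance of 0.486, Cacnb1. The lists do not hold every muscle gene, and Nrap, for one, encodes the nebulin-related anchoring protein.

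A wider set of 112 muscle genes outside the members was divided by role. Of these, 0 passed the adjusted threshold, 3 were higher in anti-PD-1 tumours at an unadjusted p under 0.05 (Adssl1, Casq2 and Sgcb) and 1 was lower (Dysf), against 9.7% of all genes in either direction. Their groups did not overlap for 6 genes, against 16.6% of all genes, so both counts lie below the background. Anti-PD-1 replicate 3 was the lowest array for 51 of them (45.5%, against 17.0% of all genes). The share was largest for the Z disc and M band, with 17 of 25. Mybpc1, a myosin-binding protein, gave 9.33, 10.02 and 8.33 in control and 10.85, 9.54 and 5.73 in anti-PD-1 tumours. Des, encoding the intermediate filament desmin, peaked in anti-PD-1 replicate 1 like Actn2, since the signal was 9.96, 10.36 and 8.43 in control replicates 2, 3 and 4 and 11.84, 10.23 and 7.07 in anti-PD-1 replicates 1, 2 and 3.

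Of 17 genes of excitation and calcium handling, 7 were lowest in anti-PD-1 replicate 3. Casq2, the calsequestrin of slow and cardiac muscle, did not follow its fast paralog Casq1. For Casq2 the signal was 9.58, 5.18 and 5.53 in control replicates 2, 3 and 4 and 9.37, 10.42 and 9.23 in anti-PD-1 replicates 1, 2 and 3, with a difference of 2.91 ± 1.13 (SE), an unadjusted p of 0.0381 and an adjusted p of 0.508. Control replicates 3 and 4 were the low arrays, and control replicate 2 lay among the anti-PD-1 tumours. Of 18 genes of muscle energy supply, 14 were highest in control replicate 3. Among them Slc2a4, the insulin-responsive glucose transporter of muscle and fat, gave 6.31, 10.06 and 5.55 in control and 5.37, 6.46 and 5.48 in anti-PD-1 tumours. Adssl1, the muscle adenylosuccinate synthase, differed by 0.58 ± 0.23 (SE, adjusted p 0.508).

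Of 11 genes of the dystrophin complex and membrane repair, 8 were highest in control replicate 3. Dysf, encoding the membrane repair protein dysferlin, gave 7.71, 9.12 and 7.85 in control and 7.64, 7.12 and 6.53 in anti-PD-1 tumours, a difference of -1.13 ± 0.46 (SE, adjusted p 0.510). Sgcb, encoding beta-sarcoglycan, was 10.83, 10.67 and 11.08 in control and 11.23, 11.95 and 11.41 in anti-PD-1 tumours, and those groups did not overlap. Genes of the neuromuscular junction showed no common pattern, with 4 of 10 lowest in anti-PD-1 replicate 3. Of the 10, 3 were highest in control replicate 3 and 3 in anti-PD-1 replicate 1. Chrna1, the alpha subunit of the muscle acetylcholine receptor, was highest in anti-PD-1 replicate 1, with 4.99, 4.11 and 4.58 in control and 6.01, 5.01 and 4.77 in anti-PD-1 tumours. Musk, the kinase that clusters that receptor, also peaked there, since the signal was 5.78, 4.60 and 4.72 in control replicates 2, 3 and 4 and 6.67, 5.28 and 3.81 in anti-PD-1 replicates 1, 2 and 3. Chrnb1 was instead highest in anti-PD-1 replicate 3, at 11.07, and lowest in control replicate 3, at 7.45. Etv5 was highest in control replicate 3, at 13.06, and lowest in anti-PD-1 replicate 3, at 10.59.

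Among 14 genes of muscle stem cells and fetal muscle, 7 were highest in anti-PD-1 replicate 1 (13.3% of all genes) and 5 lowest in anti-PD-1 replicate 3. Their list held 12 genes higher and 2 lower by mean, with a median difference of 0.25, and 0 genes passed an unadjusted p of 0.05. Of all 21154 genes, 10928 were higher by mean. In the list, 3 of the 12 higher genes were called expressed in neither group. Cdh15, the M-cadherin of satellite cells, gave 4.94, 4.54 and 4.82 in control and 5.34, 4.97 and 5.24 in anti-PD-1 tumours. Tnnt2, the cardiac and fetal troponin T, was not patterned like any fast gene. For Tnnt2 the signal was 13.09, 4.75 and 12.55 in control replicates 2, 3 and 4 and 13.37, 13.49 and 13.95 in anti-PD-1 replicates 1, 2 and 3, so control replicate 3 was its low array, as for the squamous markers below. Other regulators of muscle and the atrophy genes moved little as lists, with score ranges of 0.18 and 0.50. Mef2c, a partner of MyoD and myogenin, was 10.10, 11.99 and 10.43 in control and 10.69, 9.93 and 8.75 in anti-PD-1 tumours. Fbxo32, the ubiquitin ligase atrogin-1 of wasting muscle, was 9.54, 12.18 and 8.29 in control and 9.72, 9.25 and 8.86 in anti-PD-1 tumours.

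Markers of several other host cell types, though not of all, were also low in anti-PD-1 replicate 3, and several lists were high in control replicate 3. The fast muscle genes had summed log2 signals of 14.80 to 18.31 in control and 11.68 to 16.43 in anti-PD-1 tumours. All 9 listed adipocyte markers were measured, with summed signals of 12.48 to 19.15 in control and 11.84 to 13.30 in anti-PD-1, and 7 of the 9 were lowest in anti-PD-1 replicate 3 and 7 highest in control replicate 3. Adipoq, the hormone adiponectin of fat cells, gave 12.76, 17.32 and 8.60 in control and 9.26, 10.12 and 6.53 in anti-PD-1 tumours. In anti-PD-1 replicates 1 and 2 the adipocyte score was below 0 (-0.82 and -0.91) where the fast muscle score was above it (0.85 and 0.80). The part of fat content in the muscle values was not tested.

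The 8 endothelial markers summed to 13.12 to 14.88 in control and 11.92 to 12.72 in anti-PD-1 tumours, and 7 of 8 were lowest in anti-PD-1 replicate 3. Of 7 fibroblast markers measured, 5 were lowest there, with sums of 18.01 to 19.50 in control and 17.06 to 18.01 in anti-PD-1. Of 8 macrophage markers, 5 were lowest there, with sums of 16.33 to 17.41 in control and 15.59 to 16.80 in anti-PD-1. The scores of these lists in anti-PD-1 replicate 3 were -0.97, -1.57 and -1.13, against -2.94 for fast muscle. In anti-PD-1 replicates 1 and 2 they were -0.47 and -0.47 for endothelium, -0.30 and -0.52 for fibroblasts and 0.32 and -0.44 for macrophages. The fast muscle score was 0.85 and 0.80 there. Groups did not overlap, with anti-PD-1 lower, for 7 endothelial, 4 fibroblast and 1 macrophage marker, against 16.6% of all genes in either direction. The 9 squamous tumour markers measured of 10 ran the other way in control replicate 3, where all 9 were lowest, with sums of 13.67 to 17.88 in control and 18.43 to 19.55 in anti-PD-1. None of these 9 was lowest in anti-PD-1 replicate 3, whose squamous score was 0.89. For the remaining lists sums are given for control and then for anti-PD-1. Of the smooth muscle markers 2 of 8 were lowest in anti-PD-1 replicate 3, with sums of 13.89 to 15.29 and 14.66 to 15.10. Of these 8, 5 were highest in control replicate 3 (26.0% of all genes), where their score was 1.68. By mean 6 were lower in anti-PD-1 tumours (48.3% of all genes) and 2 higher. Acta2, the smooth muscle alpha-actin, was 1 of the 2 higher. It gave 13.93, 13.44 and 13.29 in control and 14.10, 14.49 and 14.60 in anti-PD-1 tumours, in an order unlike that of Acta1. Myh11 had the same highest and lowest arrays as Acta1, with 7.17, 12.13 and 7.34 in control and 7.74, 7.72 and 6.92 in anti-PD-1 tumours. Cnn1 also peaked in control replicate 3, at 11.67. Cardiac markers had a score range of 0.30, with sums of 7.70 to 7.89 and 7.92 to 8.05. Peripheral nerve markers summed to 11.86 to 15.27 and 10.20 to 11.95, and 3 of 8 were lowest in anti-PD-1 replicate 3. Skin and hair follicle markers summed to 8.87 to 17.07 and 15.77 to 18.15, with 0 of 8 lowest there. Mammary markers summed to 14.85 to 17.41 and 14.24 to 15.32, with 1 of 8 lowest there. Their part in the muscle result was not tested.

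**Figure D5:**
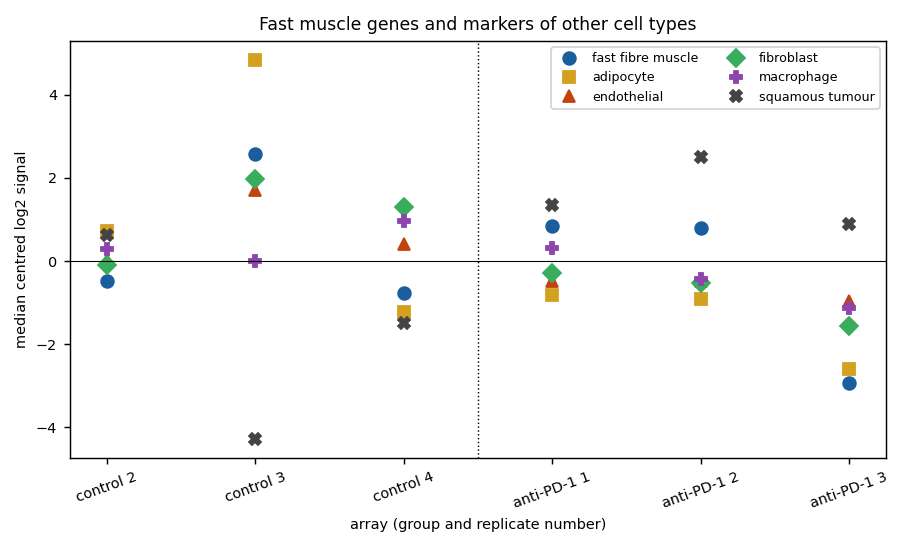
Median centred log2 signal of the fast muscle genes and of markers of adipocytes, endothelium, fibroblasts, macrophages and squamous tumour cells in each array, control to the left of the dotted line. In anti-PD-1 replicate 3 the 5 host lists shown are below 0, from -2.94 for fast muscle to -0.97 for endothelium, while the squamous list is at 0.89. Of lists not shown, smooth muscle, peripheral nerve and mammary markers were at -0.39, -0.71 and -0.62 there. Cardiac markers were at 0.08, and skin and hair follicle markers at 0.34.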

How the data were processed

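RNA of 6 tumours (250 ng each, per the labels' protocols) was hybridised to mouse Clariom S arrays. Their deposited log2 signals are gene-level values that the authors made with SST-RMA on the mm10 annotation, per the file headers. The Transcriptome Analysis Console is named in the submitters' processing notes, without a version. Each signal is thus relative to the other genes of its array, and the number of arrays limits the precision. Beside these, the authors' deposited table gives group averages, expressed calls, a signed fold (control over anti-PD-1, a score that is negative where control is lower), a p-value and an FDR, as the file headers name them.

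Of 22206 clusters, 836 with several names and 3 with none were left out. The brightest cluster was kept for 132 genes with several, which left 21154 genes, with no filter on dim signals. Groups come from the treatment labels. The groups were compared with limma 3.58.1 (lmFit, eBayes; R 4.3.3) by two-sided tests, and p-values were adjusted over all genes by Benjamini-Hochberg. That fit was tested on simulated data. No permutation test was run, since with 3 arrays a group its exact two-sided p is at least 0.1. Errors are SDs between 3 arrays or the SE of the fit. A list's score on an array is the median of its genes' centred signals, each gene centred on its own mean over 6 arrays. The summed signal of a list is log2 of the sum of its linear signals. The Tukey biweight had a tuning constant of 5 and a small constant of 0.0001. Symbols that the array spells differently were looked up among RefSeq synonyms.

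All members could be named. Of each further list the rule took up to 4 genes, the 2 with the smallest p and the 2 with the widest range, and beside these the 10 genes with the nearest profile. The members, lists and tests were chosen with earlier results of these data known, so counts over them are descriptions. Python 3.11.15, pandas 2.3.3 and NumPy 2.4.6 were used. Alternatives were each array left out, a replicate block, quantile normalization, median centring, means of clusters, dim genes left out, trend and robust variance, array weights and the series matrix values. Medians, the deposited averages and a fit without both replicates numbered 3 were added after the data were seen.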

Additional observations from a re-analysis of the deposited data

How the results depend on the processing

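With 3 arrays a group and SDs over 1 log2 unit, sizes and directions of single muscle genes are poorly fixed here. No refit over an array left out, a block or another normalization, cluster, filter, variance, weight or table choice gave a member an adjusted p under 0.05 in limma, and the smallest over 30 expressed members and these settings was 0.34. Over all genes, the single call became 0 with the replicate block, 0 with quantile normalization and 0 with median centring, and leaving out an array gave 0 to 4. Members at an unadjusted p under 0.05 numbered 1 with the replicate block and 0 to 2 with an array left out. The 2 were found without anti-PD-1 replicate 3, where 1051 of 21154 genes had such a p. For the block and the other arrays left out, the share over all genes is not given here. Those counts of p-values are not read as a result about the members. The replicate block rests on only 2 shared numbers, whose deviations correlated at -0.196 and -0.191. These values cannot show whether samples of the same number share anything more, such as a batch. Members without overlap numbered 0 with dim genes left out and 1 to 5 with an array left out, the 5 without control replicate 2. Groups of 2 and 3 arrays separate more readily than groups of 3, so the 16.6% of all genes does not apply there. The share over all genes with an array left out is not given here, so these counts are not read as a result about the members. The median difference, -0.57, ranged from -1.26 without anti-PD-1 replicate 1 to 0.51 without anti-PD-1 replicate 3, and was 0.01 without control replicate 3, -1.58 with the replicate block and 0.05 with array weights. Without both replicates numbered 3, a choice made after seeing the values, it was 1.23 and the fast minus slow difference 1.13. Leaving out an array gave -1.92 to 0.13 for fast minus slow and 0.09 to 1.09 for developmental minus fast. Quantile normalization and median centring moved no member by over 0.08, and with these, means of clusters, dim genes left out, trend and robust variance and the series matrix values 0 of 30 members changed sign. Array weights (lowest for control replicate 3, 0.341) turned 7 members, to 0.14 (Myh1), 0.72 (Mylpf), 0.53 (Myl1), 0.23 (Casq1), 0.49 (Pvalb), 0.16 (Acta1) and 0.21 (Neb). The replicate block turned 7, to -0.80 (Actn3), -0.44 (Myh7), -0.17 (Tnnt1), -0.39 (Tnnc1), -0.24 (Myh3), -1.03 (Actn2) and -0.51 (Mb). The cause was not tested.

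Leaving out 1 array changed the sign of 14 of 30 members for anti-PD-1 replicate 3, 11 for control replicate 3, 5 for anti-PD-1 replicate 1, 3 for control replicate 4, 2 for anti-PD-1 replicate 2 and 1 for control replicate 2. Over arrays left out, the replicate block and the normalization, cluster, filter, variance, weight and table settings, 9 of 30 kept their sign (Atp2a1, Eno3, Myh4, Myl3, Myog, Pygm, Tcap, Tnni1 and Ttn). This did not extend to the alternatives added after the data were seen, since by the authors' deposited table Atp2a1 was 0.84, Pygm 0.95 and Ttn 0.46, and without both replicates numbered 3 Myh4 was 0.91, Eno3 0.47 and Tcap 0.07. Myog was 0.26 with the replicate block and Tnni1 0.13. With anti-PD-1 replicate 1 left out at the low end and anti-PD-1 replicate 3 at the high end, the difference ran from -1.37 to 1.17 for Myh1, -1.86 to 0.80 for Myh2, -1.33 to 0.92 for Mylpf, -1.30 to 1.11 for Myl1, -1.95 to 0.54 for Tnnt3, -1.62 to 0.12 for Tnni2, -1.54 to 0.26 for Tnnc2, -1.63 to 0.88 for Acta1, -0.70 to 1.27 for Actn2, -1.52 to 0.69 for Neb, -0.14 to 0.98 for Mb and -1.97 to 0.03 for Ryr1. With other arrays at an end it ran from -1.39 to 0.52 for Casq1, -1.11 to 0.95 for Pvalb, -0.39 to 0.83 for Actn3, -0.19 to 0.64 for Myh7, -0.20 to 0.64 for Tnnc1, -2.81 to 0.47 for Myh8 and -1.68 to 0.01 for Ckm. Actn2, Actn3, Myh7, Tnnc1 and Mb were below 0 without anti-PD-1 replicate 1 and above 0 with all arrays. Other arrays left out also took Actn2 (-0.16), Actn3 (-0.39) and Myh7 (-0.08), each without control replicate 4, and Tnnc1 (-0.01, without control replicate 3) below 0. Mb stayed above 0 there.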
